A study of Mus musculus with 12 samples.

Results

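The 8 genes described here encode carriers that take organic anions, bile acids or carnitine up into cells: Slco1a1, Slco1a4, Slco1b2, Slco2b1, Slc22a5, Slc22a7, Slc22a26 and Slc10a1. They were chosen by symbol from the 24033 gene symbols of the deposited expression table, with earlier results of these data known. All 8 were present and well above the level needed for testing. RNA came from the livers of wild-type C57BL/6 female mice, either intact or ovariectomized (ovaries removed), that received PBS as vehicle or dexamethasone, a synthetic glucocorticoid, at 1 mg/kg, with tissue collected 6 h later. The 4 groups were intact with vehicle, intact with dexamethasone, ovariectomized with vehicle and ovariectomized with dexamethasone, with 3 libraries each. The labels give neither the age of the mice, nor the time since ovariectomy, nor whether any library pooled animals. Nor do they state that each library came from a different animal, and a p-value here weighs a difference only against the scatter of these libraries, which may be technical.

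Hepatocytes clear the portal blood of bile acids, bilirubin, hormones and drugs through carriers in their sinusoidal membrane. Slc10a1 (NTCP) imports conjugated bile acids together with sodium. The Slco genes encode organic anion transporting polypeptides (OATPs), which work without sodium and accept bile acids, steroid conjugates and many drugs. The Slc22a family holds organic anion transporters such as Slc22a7 (OAT2), organic cation transporters, and the sodium-dependent carnitine carrier Slc22a5 (OCTN2). Carnitine carries long-chain fatty acids into mitochondria. Slc22a26 belongs to a cluster of Slc22a genes that is expanded in rodents. Of the 8 genes, Slc22a5 was the only one from the cation and carnitine branch of its family. Glucocorticoids act through a nuclear receptor that binds DNA, and liver expression of several uptake carriers is known to differ between the sexes.

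The sequences at the start sites of 4 members are shown because these members span the responses described below: Slc22a26 fell most, Slco1b2 is an abundant carrier that fell, Slco1a4 passed no test, and Slc22a5 differed between gonadal states under dexamethasone. Each window runs 5′ to 3′ on the gene's strand, from 250 bases before to 50 bases after the RefSeq start (build GRCm38.p6). Capitals mark matches, on either strand, to 4 short motifs. AGAACA is the half-site of the glucocorticoid receptor. The half-site shared by many other nuclear receptors is AGGTCA. HNF1, a hepatocyte factor, is known to bind sites that hold GTTAAT. The TATA box that places the polymerase is TATAAA.
Slc22a26, chr19:7802618-7802917, minus strand: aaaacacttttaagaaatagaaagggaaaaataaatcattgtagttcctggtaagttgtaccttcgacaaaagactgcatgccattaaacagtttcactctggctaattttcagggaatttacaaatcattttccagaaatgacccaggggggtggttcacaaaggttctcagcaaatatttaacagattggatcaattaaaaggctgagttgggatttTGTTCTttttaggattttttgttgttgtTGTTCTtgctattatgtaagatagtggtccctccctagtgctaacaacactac
Slco1b2, chr6:141629268-141629567, plus strand: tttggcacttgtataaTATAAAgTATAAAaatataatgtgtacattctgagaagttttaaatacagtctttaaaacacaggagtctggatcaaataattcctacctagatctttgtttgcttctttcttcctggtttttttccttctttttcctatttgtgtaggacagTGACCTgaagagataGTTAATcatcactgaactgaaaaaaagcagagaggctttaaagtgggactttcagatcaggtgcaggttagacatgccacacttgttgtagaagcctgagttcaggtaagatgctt
Slco1a4, chr6:141856171-141856470, minus strand: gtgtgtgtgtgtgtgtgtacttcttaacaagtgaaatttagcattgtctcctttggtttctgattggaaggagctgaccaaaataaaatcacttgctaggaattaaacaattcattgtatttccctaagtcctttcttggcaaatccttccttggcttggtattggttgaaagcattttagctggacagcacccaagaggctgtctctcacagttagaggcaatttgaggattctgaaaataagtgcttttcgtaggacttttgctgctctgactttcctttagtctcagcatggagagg
Slc22a5, chr11:53891654-53891953, minus strand: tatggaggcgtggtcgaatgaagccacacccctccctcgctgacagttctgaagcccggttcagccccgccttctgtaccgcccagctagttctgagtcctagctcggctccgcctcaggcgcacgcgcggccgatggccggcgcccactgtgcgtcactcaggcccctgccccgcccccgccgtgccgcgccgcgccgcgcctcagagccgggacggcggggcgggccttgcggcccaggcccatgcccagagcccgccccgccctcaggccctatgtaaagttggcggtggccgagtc

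The Slc22a26 window held 2 glucocorticoid receptor half-sites, both on the opposite strand, which begin at -31 and -3 relative to the start. The Slco1b2 window held the TATA letters at -234 and -227, a nuclear receptor half-site on the opposite strand at -81 and the HNF1 letters at -66. The Slco1a4 and Slc22a5 windows held none of the 4 motifs. The windows also differed in base composition, with a GC content of 35.7% for Slc22a26, 35.3% for Slco1b2, 40.7% for Slco1a4 and 72.7% for Slc22a5. Of 32851 RefSeq promoter windows of this length, 19% held the glucocorticoid receptor half-site, 16.3% the nuclear receptor half-site, 7.1% the HNF1 letters and 13.6% the TATA letters, so none of these matches is rare. The full palindromic glucocorticoid receptor element, of which the half-site is a part, was in 0.00913% of the windows, and the C/EBP palindrome was in 0.183%. Neither was in the 4 windows shown. A match is a run of letters and not a measured binding site. RefSeq windows were matched for 7 of the 8 members, all but Slc22a7.

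The libraries were alike in overall level, with medians of 8.82 to 8.86 on the deposited log2 scale over 12965 tested genes. Depth is unknown, because the deposited table gives log2 normalized values and no counts. Hepatocyte markers were abundant in every library, with Alb (albumin) at 21.59 to 22.03. Of 8 markers of kidney, where several Slc22a genes are strongly expressed, 6 had a mean at or below 0, among them Slc34a1 and Slc22a6, and Kap was listed at 0.

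Ranked per kilobase of transcript, the bile acid carriers were the most abundant members. Slc10a1 averaged 13.46 log2 units per kilobase over the 12 libraries (range 13.07 to 13.80) and Slco1b2 averaged 12.82 (12.40 to 13.36). Slco1a4 followed at 10.56 (10.34 to 10.92) and Slco2b1 at 10.08 (9.68 to 10.39). The anion transporters Slc22a7 and Slc22a26 lay at 9.29 (8.40 to 10.07) and 9.13 (8.19 to 10.21). Slc22a5 was at 8.49 (7.93 to 9.20) and Slco1a1 was lowest, with a range of 6.27 to 9.18. Only the step from Slco1b2 to Slco1a4, of 2.26 log2 units, separated neighbours whose libraries did not overlap. The lengths are those of the longest coding transcript. With the median coding length Slco2b1 would stand at 12.59, above Slco1a4 at 11.33 and next to Slco1b2 at 13.15. The clear step after Slco1b2 therefore depends on the length used.

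**Figure D1:**
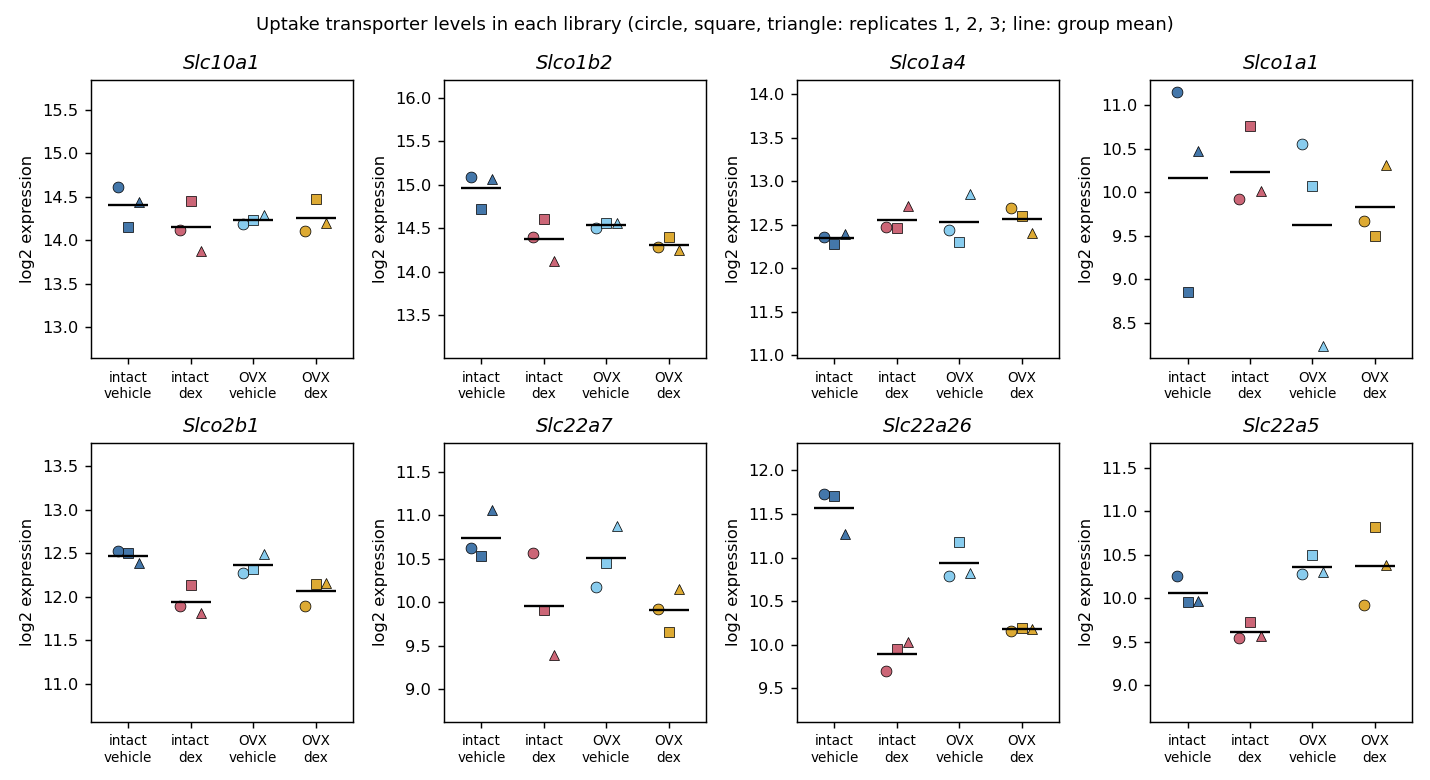
Deposited log2 level (y axis) of each of the 8 uptake transporters in the 12 libraries, by group, with every library as a point (shape for the replicate) and the group mean as a line; OVX is ovariectomized and dex is dexamethasone. Slc22a26 falls from 11.27 to 11.73 in intact vehicle livers to 9.70 to 10.03 after dexamethasone, while the Slco1a1 libraries scatter by over 2 log2 units within both vehicle groups.

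Dexamethasone in intact females lowered 5 of the 8 carriers and raised none. By limma with Benjamini-Hochberg adjustment over all tested genes, at an adjusted p under 0.05, the members that fell were Slc22a26, Slc22a7, Slco1b2, Slco2b1 and Slc22a5. The background was high: 48.8% of all tested genes passed the same test in this comparison, 25.9% as falls and 22.8% as rises. The members' median log2 fold change was -0.49, against 0.0013 over all tested genes. In ovariectomized females dexamethasone lowered 2 members, Slc22a26 and Slco2b1, and raised none, where 40.7% of tested genes passed, 19.4% as falls and 21.3% as rises. There the members' median was -0.11. These are whole-liver values, so fewer cells of a type and less RNA per cell cannot be told apart.

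Ovariectomy under vehicle was accompanied by a lower level of 2 members, Slc22a26 and Slco1b2, with 27.9% of tested genes passing, 15.5% as falls and 12.4% as rises; the members' median was -0.20. Under dexamethasone 1 member, Slc22a5, was higher in ovariectomized than in intact females, where 12.8% of tested genes passed, 7.74% as rises and 5.08% as falls, and the median was 0.06. The dexamethasone response differed between gonadal states for 1 member, Slc22a26, against 24.9% of tested genes (15.3% with a higher and 9.65% with a lower value after ovariectomy), and the members' median difference (ovariectomized minus intact response) was 0.25. The share of members that passed was therefore near or below the background in every comparison outside dexamethasone in intact females. There 62.5% of members passed against 48.8% of tested genes, where 1 member makes up 12.5%. That count was 3 with no filter on low values and 3 to 5 when each library was left out in turn. The gap to the background was not tested. The comparisons share libraries with each other, so their counts are not independent.

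**Figure D2:**
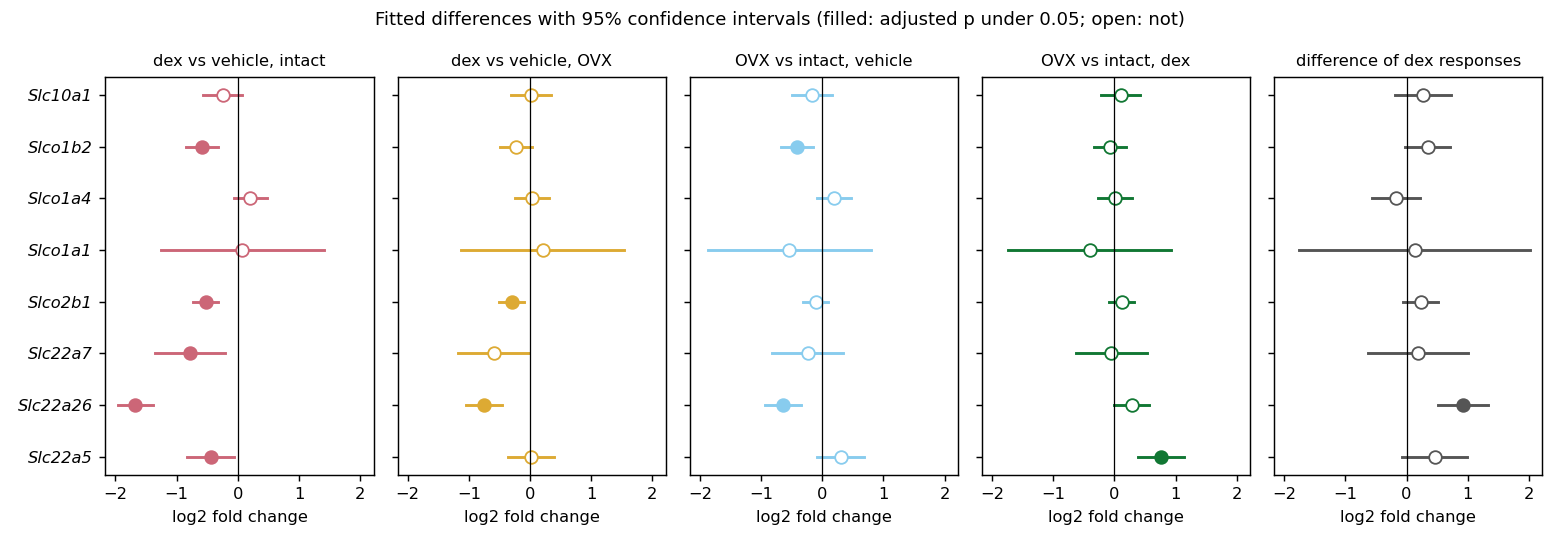
Log2 fold change (x axis) of the 8 uptake transporters in each comparison, with 95% confidence intervals from limma; filled points passed at an adjusted p under 0.05. Slc22a26 has the most negative value under dexamethasone in intact females, at -1.68, and the intervals of Slco1a1 are the widest.

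Slc10a1, the sodium-dependent bile acid carrier, passed no test. Its log2 levels were 14.61, 14.15 and 14.44 in intact vehicle livers and 14.12, 14.46 and 13.88 after dexamethasone. They were 14.19, 14.24 and 14.29 in ovariectomized vehicle livers and 14.11, 14.47 and 14.19 after dexamethasone. All 4 groups overlapped, and in each dexamethasone group replicate 2 was the highest library. The log2 fold change with dexamethasone was -0.25 ± 0.15 (SE) in intact females (95% interval -0.57 to 0.07, limma adjusted p = 0.184) and 0.02 in ovariectomized females (interval -0.30 to 0.34). Without the intact dexamethasone replicate 2 library the intact value was -0.40 and passed (adjusted p = 0.0328; the range over all 23 alternative settings was 0.0227 to 0.575).

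Slco1b2, the main liver OATP for bile acids, bilirubin and statins in mice, fell with dexamethasone in intact females. Its levels were 15.08, 14.72 and 15.06 with vehicle and 14.40, 14.61 and 14.12 with dexamethasone, and the groups did not overlap, as for 55.5% of tested genes. The log2 fold change was -0.58 ± 0.12 (adjusted p = 0.00196), which left 66.9% of the vehicle level. Ovariectomized vehicle libraries were at 14.50, 14.56 and 14.56, all below the intact vehicle libraries, with a fold change of -0.41 ± 0.12 (adjusted p = 0.0236, where 45% of tested genes had non-overlapping groups). This second call was the less secure: it was lost without the intact vehicle replicate 1 or 3 library or any of the 3 ovariectomized vehicle libraries, with an adjusted p of 0.00714 to 0.109 over the 23 alternative settings. After dexamethasone the ovariectomized libraries were at 14.28, 14.40 and 14.24, again below their vehicle group without overlap, but the fold change of -0.23 did not pass (adjusted p = 0.141; 54.6% of tested genes had non-overlapping groups there). The difference between the responses was 0.35 ± 0.17 (interval -0.02 to 0.72, adjusted p = 0.148), and it passed without the intact vehicle replicate 2 library (0.46, adjusted p = 0.0457; range 0.0457 to 0.927).

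Slco2b1, an OATP with a broad distribution that transports steroid sulfates, fell in both gonadal states. Intact vehicle libraries were at 12.52, 12.50 and 12.39 and intact dexamethasone libraries at 11.89, 12.13 and 11.81. Ovariectomized libraries were at 12.28, 12.32 and 12.49 with vehicle and 11.90, 12.14 and 12.16 with dexamethasone. Every dexamethasone library was below every vehicle library of its gonadal state. Groups did not overlap, in either direction, for 55.5% of tested genes in intact and 54.6% in ovariectomized females. The log2 fold changes were -0.53 ± 0.095 in intact females (adjusted p = 0.00084) and -0.30 ± 0.095 in ovariectomized females (adjusted p = 0.0256). The second call was lost without the ovariectomized vehicle replicate 3 library (-0.23, adjusted p = 0.0998) or the ovariectomized dexamethasone replicate 1 library (-0.21, adjusted p = 0.106; range 0.00642 to 0.106). The responses were not shown to differ (difference 0.23, interval -0.06 to 0.52, adjusted p = 0.227).

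Slco1a4, an OATP of sinusoidal hepatocyte membrane and of the blood-brain barrier, passed no test. Its levels were 12.36, 12.27 and 12.39 in intact vehicle livers and 12.47, 12.46 and 12.71 after dexamethasone. All 3 dexamethasone libraries were thus above all 3 vehicle libraries, which held for 55.5% of tested genes in either direction. The log2 fold change was 0.21 ± 0.13 (interval -0.07 to 0.48, adjusted p = 0.199). In ovariectomized females the vehicle libraries were at 12.44, 12.30 and 12.85 and the dexamethasone libraries at 12.70, 12.60 and 12.40, which overlapped. Slco1a4 is the neighbour of Slco1a1 in the RefSeq gene order, and 2.73% of its 50-base words also occur in other genes, mostly Slco1a5.

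Slco1a1, an OATP known to be far more abundant in male than in female mouse liver, varied within groups more than nearly all genes. Its levels were 11.15, 8.86 and 10.47 in intact vehicle livers and 9.92, 10.76 and 10.01 in intact dexamethasone livers. In ovariectomized livers they were 10.56, 10.07 and 8.24 with vehicle and 9.68, 9.50 and 10.31 with dexamethasone. The vehicle groups therefore enclosed every dexamethasone library, and no comparison passed. The residual SD of 0.905 log2 units stood at the 99.9th percentile of tested genes, whose median was 0.109. The dexamethasone fold change in intact females had a 95% interval of -1.26 to 1.41 on the log2 scale, so a log2 change of 1 in either direction lay inside it.

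Slc22a7 (OAT2), which carries small organic anions across the sinusoidal membrane, fell with dexamethasone in intact females. Vehicle libraries were at 10.62, 10.53 and 11.06 and dexamethasone libraries at 10.56, 9.91 and 9.39, with replicate 1 of the latter inside the vehicle range. The log2 fold change was -0.78 ± 0.26 (adjusted p = 0.0287). The call was lost without the intact vehicle replicate 3, intact dexamethasone replicate 2 or intact dexamethasone replicate 3 library, with values of -0.62, -0.76 and -0.50 and adjusted p of 0.11, 0.0633 and 0.109 (range 0.00428 to 0.11 over 23 alternative settings). In ovariectomized females the vehicle libraries were at 10.18, 10.45 and 10.88 and the dexamethasone libraries at 9.92, 9.66 and 10.15. The groups did not overlap, as for 54.6% of tested genes, but the fold change of -0.59 ± 0.26 did not pass (adjusted p = 0.0929). It passed without the intact dexamethasone replicate 1 or replicate 3 library (adjusted p = 0.0424 and 0.0423; range 0.0333 to 0.292). The difference between the responses was 0.19 with an interval of -0.63 to 1.01.

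Slc22a26 showed the largest change of the 8. Intact vehicle libraries were at 11.73, 11.71 and 11.27 and intact dexamethasone libraries at 9.70, 9.94 and 10.03. In ovariectomized livers the levels were 10.79, 11.18 and 10.83 with vehicle and 10.16, 10.20 and 10.18 with dexamethasone. No 2 of the 4 groups overlapped: intact vehicle was highest, ovariectomized vehicle next, and both dexamethasone groups were lower, with the intact one lowest. In single comparisons groups did not overlap for 34.1% to 55.5% of tested genes, and the share for all 4 groups at once was not computed. Dexamethasone lowered Slc22a26 by a log2 fold change of -1.68 ± 0.13 in intact females (3.19-fold, adjusted p = 5.16e-06) and -0.75 ± 0.13 in ovariectomized females (1.69-fold, adjusted p = 0.00101). Under vehicle, ovariectomized livers were lower than intact ones by -0.64 ± 0.13 (adjusted p = 0.00516). Under dexamethasone the gap was 0.28 ± 0.13 in the other direction and did not pass (adjusted p = 0.166). The difference between the responses, 0.92 ± 0.19 (interval 0.51 to 1.33), passed (adjusted p = 0.0053) and kept doing so under all 22 alternative settings run for it, with an adjusted p of 0.00285 to 0.0275. Of its 50-base words 5.88% are shared with another locus.

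**Figure D3:**
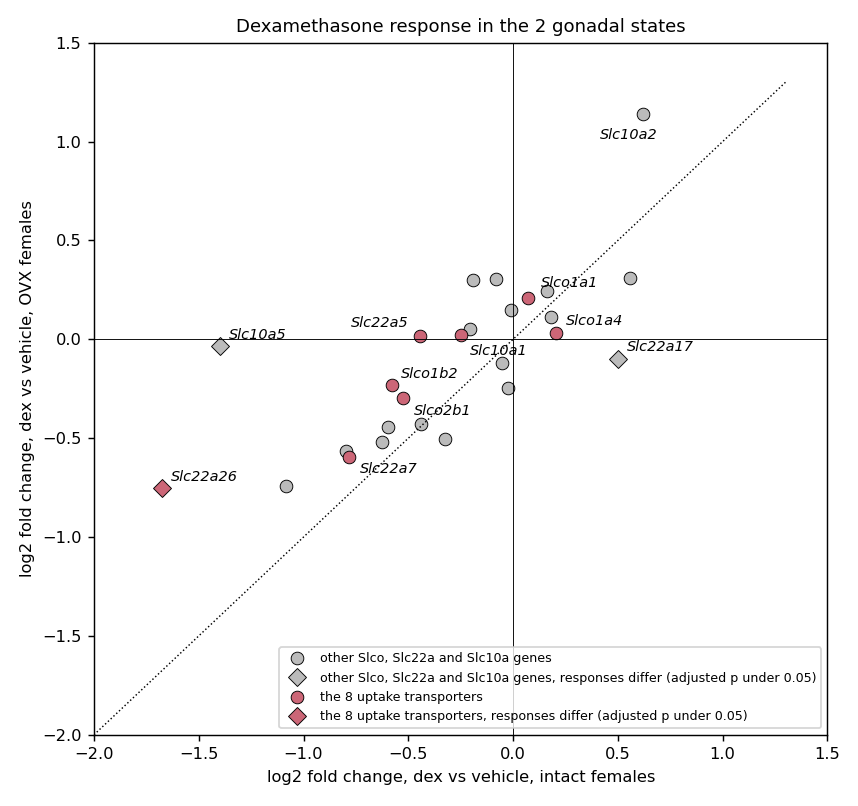
Log2 fold change with dexamethasone in intact females (x axis) against that in ovariectomized females (y axis) for the 8 uptake transporters (red) and the 18 other tested Slco, Slc22a and Slc10a genes (grey), with equal responses on the dotted line. Diamonds mark Slc22a26, Slc10a5 and Slc22a17, whose responses differed between gonadal states; Slc22a26 and Slc10a5 lie above the line at -1.68 and -1.40 on the x axis.

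Slc22a5, the carnitine carrier, was lowest in intact dexamethasone livers. Intact libraries were at 10.25, 9.96 and 9.97 with vehicle and 9.55, 9.72 and 9.57 with dexamethasone. Ovariectomized libraries were at 10.29, 10.49 and 10.30 with vehicle and 9.93, 10.82 and 10.38 with dexamethasone. The intact groups did not overlap, as for 55.5% of tested genes, and the fold change of -0.45 ± 0.17 just passed (adjusted p = 0.0498). That call was lost in 16 of 23 alternative settings, among them leaving out any of the 6 intact libraries, any ovariectomized vehicle library or ovariectomized dexamethasone replicate 3, with an adjusted p of 0.00807 to 0.166. The ovariectomized fold change was 0.02 (interval -0.36 to 0.39), and the difference between the responses was 0.46 ± 0.24 (interval -0.07 to 0.99, adjusted p = 0.183). It passed without the ovariectomized dexamethasone replicate 1 library (0.69, adjusted p = 0.0199; range 0.0199 to 0.398).

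Under dexamethasone, Slc22a5 was 1.70-fold higher in ovariectomized than in intact livers (log2 fold change 0.76 ± 0.17, adjusted p = 0.0214). The groups did not overlap, which held for 34.1% of tested genes. The call was lost without the intact dexamethasone replicate 1 library (0.73, adjusted p = 0.0739) or the ovariectomized dexamethasone replicate 3 library (0.76, adjusted p = 0.0759; range 0.0047 to 0.0759). Under vehicle the gap was 0.30 ± 0.17 and did not pass (adjusted p = 0.215), although the groups did not overlap there either, as for 45% of tested genes. Slc22a5 shares 27.1% of its 50-base words with other genes, 26.9% with its neighbour Slc22a21, so its values are uncertain to the extent that reads could have been split between them. Slc22a21 was far lower, at a mean of 4.97 in intact vehicle and 5.53 in intact dexamethasone livers, and rose (0.56 ± 0.11, adjusted p = 0.00167).

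In both dexamethasone groups replicate 2 was the highest library for Slc10a1, Slco1b2 and Slc22a5. Over all tested genes the deviations of these 2 libraries from their group means had a correlation of 0.396, the highest of the 18 same-number pairs. With both left out, an alternative added after seeing the data, 5 members again fell with dexamethasone in intact females, but Slc10a1 was among them (-0.40, adjusted p = 0.0227) and Slc22a7 was not (-0.76, adjusted p = 0.07). Slc22a5 in intact females had an adjusted p of 0.0124 there. In ovariectomized females 2 members fell, and 2 were lower with ovariectomy under vehicle. Under dexamethasone no member differed between gonadal states (Slc22a5 0.60, adjusted p = 0.0526), and 503 of all tested genes did, against 1662 with the libraries included.

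Several members moved together over the 12 libraries, which share treatment, library and normalization. Pearson's r was 0.874 for Slco2b1 and Slc22a26, and 0.777 both for Slco1b2 with Slco2b1 and for Slco1b2 with Slc22a26. For deviations from the group means these 3 values were 0.155, 0.456 and -0.242. Slco1b2 and Slc10a1 had r = 0.742, and 0.941 for deviations from the group means. These bile acid carriers thus varied together within groups in these 12 libraries. The 0.941 is the highest within-group value among all member pairs, so it is a picked value. Slco1a1 and Slco1a4, chromosomal neighbours, had r = -0.496.

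Among the tested genes most like each member over the 12 libraries, by Pearson's r, were Nptn (0.979) and Srd5a2 (0.977) for Slc22a26, and Hectd3 (0.98) and Tmem220 (0.973) for Slco2b1. Srd5a2 encodes a steroid 5-alpha-reductase. Its mean level of 4.36 lay near the filter of 4, at the low end of the scale that may be shrunk. Bcar3 (0.954) was close to Slco1b2. For Slc22a5 they were Mmadhc (0.941) and Zbed6 (0.912), and Rnf181 (0.9) was close to Slc22a7. Gstm7 (0.895), a glutathione transferase, was close to Slco1a4, and Gga2 (0.849) and Sos1 (0.843) to Slc10a1. Slco1a1 was most like Mrpl1 (0.823) and Hsd3b5 (0.809). Hsd3b5 is a steroid dehydrogenase known to be male-biased in mouse liver, as Slco1a1 is. Its levels were 6.59, 4.68 and 5.59 in intact vehicle libraries 1 to 3 and 5.83, 4.88 and 4.35 in ovariectomized vehicle libraries, so the lowest library of each vehicle group was the same for both genes. Within groups r was 0.925 for the pair. Hsd3b5 was picked for its high r with Slco1a1, whose spread lay mostly within groups, so neither likeness is separate evidence.

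**Figure D4:**
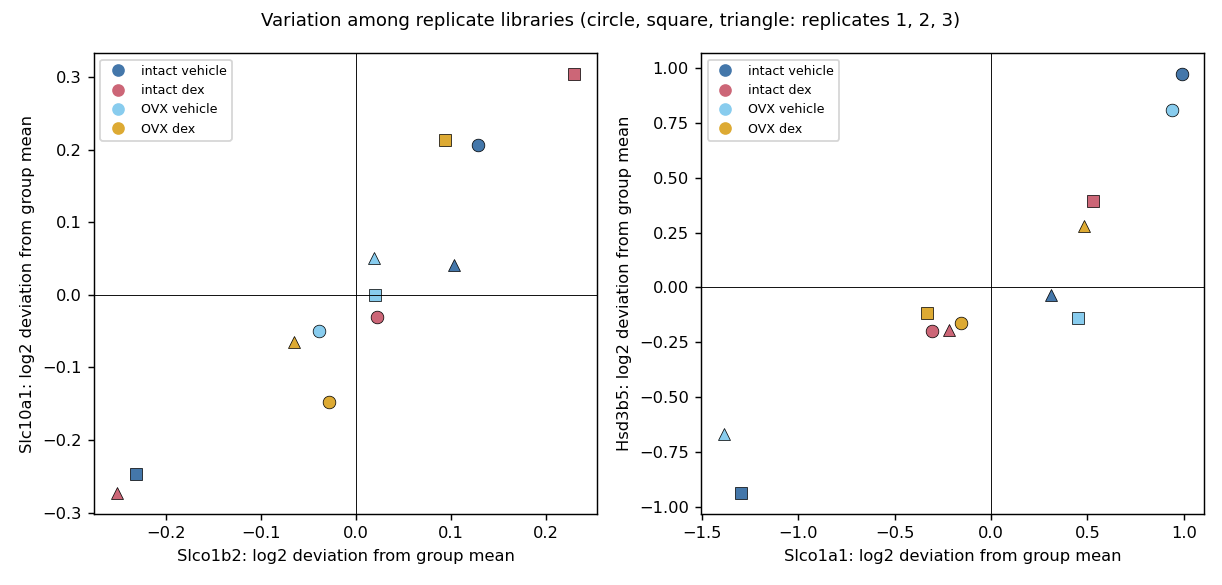
Log2 deviation of each of the 12 libraries from its group mean, for Slco1b2 (x axis) and Slc10a1 (y axis) on the left and for Slco1a1 (x axis) and Hsd3b5 (y axis) on the right, with colour for the group (OVX, ovariectomized; dex, dexamethasone) and shape for the replicate. The points run from lower left to upper right in both panels, with within-group r of 0.941 and 0.925, and the 2 lowest Slco1a1 libraries belong to the vehicle groups. Hsd3b5 was picked for its correlation with Slco1a1 over the same 12 libraries, and the left pair has the highest within-group r of all member pairs.

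Of the 41 other Slco, Slc22a and Slc10a genes in the table, 18 passed the filter on low values and 23 did not, 4 of them listed at 0 in every library. Dexamethasone in intact females lowered 6 of the 18 and raised 2, with a median of -0.14. These 8 are 44.4% of the 18, against 48.8% of all tested genes. Slc10a5, an orphan relative of the bile acid carriers, fell by 1.40 ± 0.12 on the log2 scale, and Slc22a23, an orphan Slc22a member, fell by 1.08 ± 0.093. Slc22a27, the neighbour of Slc22a26, fell by 0.80 ± 0.10, but shares 30.5% of its 50-base words with other genes. Slco2a1, a prostaglandin carrier, fell by 0.62 ± 0.092. In ovariectomized females 5 fell and 3 rose, or 44.4% of the 18 against 40.7% of all tested genes. Slc22a23 (-0.74), Slc22a27 (-0.57) and Slco2a1 (-0.52) were among the falls. Slc10a2, the ileal bile acid carrier that is also found in bile duct cells, was among the rises (1.14 ± 0.26, adjusted p = 0.00504). The summed level of 6 cholangiocyte (bile duct cell) markers was 11.30 to 11.57 in ovariectomized vehicle and 10.83 to 11.08 in ovariectomized dexamethasone livers, without overlap, as for 54.6% of single tested genes. That sum follows mainly Spp1 (mean 10.96, against 6.42 for Sox9). Of the 5 markers tested singly, 2 fell and 0 rose (median log2 fold change -0.12), where 19.4% of tested genes fell. The part of duct cells in the Slc10a2 value was not tested.

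The group means of Slc10a5 were 10.45 in intact vehicle, 9.05 in intact dexamethasone, 9.67 in ovariectomized vehicle and 9.64 in ovariectomized dexamethasone livers. Its response to dexamethasone differed between gonadal states by 1.36 ± 0.17 (adjusted p = 0.000613), 1 of the 2 such genes among the 18, the other being Slc22a17 (-0.60), whose call was lost in 8 of 22 alternative settings. Under vehicle 3 of the 18 were lower and none higher in ovariectomized livers, among them Slc10a5 (-0.78), and under dexamethasone Slc10a5 alone was higher (0.59), a call lost in 4 of 23 alternative settings. The count under vehicle was 1 without the intact vehicle replicate 1 library. That under dexamethasone was 0 without intact dexamethasone replicate 1 or ovariectomized dexamethasone replicate 3, and 2 without intact dexamethasone replicate 2 or 3. The count of differing responses was 1 without replicate 1 of intact vehicle, intact dexamethasone or ovariectomized vehicle, or without ovariectomized dexamethasone replicate 2. Over all tested genes ovariectomy passed for 27.9% under vehicle and 12.8% under dexamethasone, and the responses differed for 24.9%.

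Among 17 tested efflux carriers and partner transporters, which move bile acids, conjugates and sterols onwards, dexamethasone lowered 13 and raised 2 in intact females, with a median of -0.41. Together these are 88.2% of the 17, against 48.8% of all tested genes. The list was chosen with earlier results of these data known, and the gap was not tested. Abcb1a, a drug efflux pump, fell by 2.02 ± 0.094, the sterol exporter subunits Abcg8 and Abcg5 fell by 1.39 ± 0.10 and 0.93 ± 0.098, and Abcc2, the canalicular pump for conjugates, fell by 0.98 ± 0.061. In ovariectomized females 5 fell and 1 rose (Slc29a1, a nucleoside carrier, 0.59). The responses differed for 6 of the 17, all with a higher value in ovariectomized females, among them Abcb1a (0.82) and Abcc2 (0.76). That count was 4 to 7 when each library was left out in turn. Slc27a5 and Abcc3, also among the 6, lost the call with quantile normalization. Ovariectomized livers were lower for 4 under vehicle and higher for 2 under dexamethasone, the latter count being 1 without intact dexamethasone replicate 1 or ovariectomized dexamethasone replicate 3. Over all tested genes dexamethasone passed for 40.7% in ovariectomized females, and the responses differed for 24.9%. Ovariectomy passed for 27.9% under vehicle and 12.8% under dexamethasone.

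Of 28 transcription factors and receptors known to act on carrier genes, all tested, dexamethasone lowered 14 and raised 3 in intact females, with a median of -0.27. Together these are 60.7% of the 28, against 48.8% of all tested genes. This list too was chosen with earlier results known, and its gap to the background was not tested. Nr0b2 (SHP, a corepressor in bile acid feedback) fell by 1.37 ± 0.22, Ppara, the fatty acid receptor, by 1.20 ± 0.11, Nr1i3 (CAR, a xenobiotic receptor) by 0.87 ± 0.20, and Ghr, the growth hormone receptor, by 0.77 ± 0.082. In ovariectomized females 7 fell and 5 rose, with Hnf4a, a hepatocyte master regulator, up by 0.81 ± 0.088 and Nr0b2 among the falls (-0.85 ± 0.22). The responses differed for 10 of the 28, 9 of them with a higher value after ovariectomy, such as Hnf4a (0.84) and Ppara (0.75). Ovariectomy lowered 6 and raised none under vehicle, among them Nr3c1, the glucocorticoid receptor (-0.43 ± 0.054, adjusted p = 0.000464), and raised 5 and lowered none under dexamethasone. Both counts depended on single libraries. The count under vehicle was 10 without intact dexamethasone replicate 2 and 11 without intact dexamethasone replicate 3, and 4 was its lowest value. The count under dexamethasone was 2 without intact dexamethasone replicate 1 or ovariectomized dexamethasone replicate 3, and 3 without replicate 3 of either vehicle group or ovariectomized dexamethasone replicate 1 or 2. Over all tested genes dexamethasone passed for 40.7% in ovariectomized females, and the responses differed for 24.9%. Ovariectomy passed for 27.9% under vehicle and 12.8% under dexamethasone.

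The 13 genes listed for carnitine handling include another Slc22a gene, Slc22a21, the neighbour of Slc22a5. Slc22a21 is also counted among the other Slco, Slc22a and Slc10a genes above. Dexamethasone lowered 6 of the 13 and raised 1, Slc22a21 (0.56), in intact females (median -0.15). It lowered 1 and raised 3, Slc22a21 (0.31, limma adjusted p = 0.0436) among them, in ovariectomized females. This Slc22a21 call was lost with no filter on low values, with recentring, and when any single ovariectomized library was left out. Crot, a peroxisomal carnitine acyltransferase, fell in both gonadal states (-0.95 ± 0.13 and -0.71 ± 0.13). Cpt1a, which makes acylcarnitines at the mitochondrial outer membrane, fell in intact females (-0.57 ± 0.070) and had a value of 0.08 in ovariectomized females. The difference between these Cpt1a responses was 0.65 ± 0.099 (limma adjusted p = 0.00128). Under dexamethasone 5 of the 13 were higher in ovariectomized than in intact livers and none was lower, and under vehicle 2 were lower. The responses differed for 6 of the 13. The count of 5 under dexamethasone was 0 without ovariectomized dexamethasone replicate 3, 1 without intact dexamethasone replicate 1 and 2 without intact dexamethasone replicate 3 or ovariectomized dexamethasone replicate 2. It was also 0 with quantile normalization and with both dexamethasone replicate 2 libraries left out. The count for dexamethasone in ovariectomized females was 2 without replicate 1 or 3 of ovariectomized vehicle or replicate 2 or 3 of ovariectomized dexamethasone. Under vehicle it was 1 without intact vehicle replicate 1 or ovariectomized vehicle replicate 2. That of differing responses was 3 without replicate 1 of intact vehicle, intact dexamethasone or ovariectomized vehicle, or without ovariectomized dexamethasone replicate 2 or 3. Of 6 genes for membrane scaffolds of carriers, 3 fell and 1 rose in intact females (Slc9a3r1 -0.85, Rdx -0.67, Pdzk1 -0.57), and the same 3 fell in ovariectomized females (-0.34, -0.36 and -0.48), where the call of Slc9a3r1 was lost in 6 of 23 alternative settings. Under vehicle 1 was lower and 1 higher in ovariectomized livers, none differed under dexamethasone, and the responses differed for 3. The count of differing responses was 1 without intact vehicle replicate 3 or ovariectomized vehicle replicate 1, and that under vehicle was 1 without the latter. For both lists, also chosen with earlier results of these data known, the background is the share of all tested genes. No gap to it was tested. Dexamethasone passed for 48.8% in intact and 40.7% in ovariectomized females, and the responses differed for 24.9%. Ovariectomy passed for 27.9% under vehicle and 12.8% under dexamethasone.

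Marker genes of other cell types moved with some comparisons. In intact females the summed level of 9 hepatocyte markers was 22.15 to 22.30 with vehicle and 22.01 to 22.13 with dexamethasone, while that of 8 stellate cell markers was 12.91 to 13.31 and 13.50 to 13.72, and that of 8 sinusoidal endothelial markers 12.91 to 13.05 and 13.28 to 13.74. These sums weigh the most abundant genes, and the hepatocyte sum follows mainly Alb (mean 21.79, against 18.25 for Apoa1). By single genes, 4 of the 9 hepatocyte markers rose and 1 fell there (median log2 fold change 0.19). Of 8 stellate markers 4 rose and 0 fell, and of 8 endothelial markers 3 rose and 1 fell. Among all tested genes 22.8% rose and 25.9% fell. In ovariectomized females the hepatocyte sum was 22.01 to 22.15 with vehicle and 22.16 to 22.37 with dexamethasone, the endothelial sum was 12.89 to 13.11 and 13.18 to 13.48, also without overlap, and the stellate sum overlapped. Groups of single tested genes did not overlap for 54.6% there. Of single hepatocyte markers 6 rose and 0 fell (median 0.44), and of endothelial markers 2 rose and 2 fell (median 0.06). Among all tested genes 21.3% rose and 19.4% fell. The part of these shifts in the changes of the 8 carriers was not tested.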

How the data were processed

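Liver RNA of 12 libraries in 4 groups of 3 was sequenced after TruSeq library construction, per the labels' protocols. The authors deposited 1 table of log2 values per gene, normalized between libraries from HTSeq gene counts, per the labels; the exact transformation is not given in the sources used here. Trim Galore, TopHat2, HTSeq, DESeq and DESeq2 and the genome build mm9 are named, without tool versions, per the submitters' processing notes. Strand use in counting is not stated there.

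The deposited table held 24962 entries, 6294 of them listed at 0 in every library. For the 392 symbols listed more than once only the most highly expressed entry was used, giving 24033 symbols, of which 12965 had a mean of at least 4 and were tested. The deposited log2 values were fitted with limma 3.58.1 (R 4.3.3) as 4 group means with a variance trend and 8 residual degrees of freedom, and p-values were adjusted by Benjamini-Hochberg over all tested genes in each of 5 comparisons. A gene was called at an adjusted p under 0.05, two-sided. The fit was tested on simulated data. A mean ± value is a log2 fold change with its standard error. The low end of the scale may be shrunk, which was not tested.

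The members and the gene lists were chosen with earlier results of these data known. Named genes were all 8 members, up to 4 called genes with the largest change per list and comparison, and the 2 genes most correlated with each member. Some genes that this rule names are not reported here. Levels per kilobase used GENCODE M21 transcripts (GRCm38), and shared sequence was the percentage of 50-base words found in transcripts of other genes. Promoter windows came from RefSeq (GRCm38.p6). Alternatives were other filters, scalings, variance models, a pseudocount, only the libraries compared, a replicate block, the mean of duplicate entries and each library left out.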

Additional observations from a re-analysis of the deposited data

Results flagged for a closer look

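Slc22a26 responded to dexamethasone differently in the gonadal states: the ovariectomized minus the intact response was 0.92 on the log2 scale (limma adjusted p = 0.0053), with responses of -1.68 in intact and -0.75 in ovariectomized females. The test of that difference is why it is given here. In the related family Slc10a5 differed by 1.36 and Slc22a17 by -0.60.

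The same difference passed for Abcb1a (0.82), Abcc2 (0.76), Slc27a5 (0.61) and Abcc3 (0.61) among efflux carriers and partners. Among regulators it passed for Esr1 (1.66), Hnf4a (0.84), Ppara (0.75) and Nr5a2 (0.73). In carnitine handling it was 0.65 for Cpt1a, 0.43 for Acadm, 0.35 for Aldh9a1 and 0.34 for Bbox1, and among scaffold genes 0.51 for Slc9a3r1, -0.41 for Slc9a3r2 and 0.31 for Rdx. Across all tested genes 24.9% passed this test. Of these genes Esr1, Acadm, Aldh9a1, Abcc3, Slc22a17, Slc9a3r1, Rdx, Slc27a5 and Bbox1 lost the call in at least 1 of 22 alternative settings. All of those but Esr1 lost it with quantile normalization, where for example Slc27a5 stood at 0.22, Rdx at 0.15 and Abcc3 at 0.43.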

How the results depend on the processing

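Over 40 member results, 16 kept their direction and their side of the threshold in all alternatives; among calls these were Slc22a26 with dexamethasone in both gonadal states, with ovariectomy under vehicle and in the difference between responses, and Slco1b2 and Slco2b1 with dexamethasone in intact females. Of 82 results for other named genes 53 did so.

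With no filter on low values, 3 members were called for dexamethasone in intact females, 1 in ovariectomized females, 1 for ovariectomy under vehicle and 0 under dexamethasone, where 822 of all genes were called. With only the libraries compared, 4 members passed for dexamethasone in ovariectomized females, and 0 members and 601 genes for ovariectomy under dexamethasone. Quantile normalization left 1 member for ovariectomy under vehicle and 768 genes for ovariectomy under dexamethasone. With both dexamethasone replicate 2 libraries left out (chosen after seeing the data), 0 members and 503 genes passed in the last comparison. The cause was not tested.

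Leaving out each library in turn gave 3 to 5 members for dexamethasone in intact females (5214 to 6290 genes), 1 to 3 in ovariectomized females (3982 to 5623 genes), 1 to 2 for ovariectomy under vehicle (2215 to 3989 genes), 0 to 1 under dexamethasone (207 to 1852 genes) and 1 to 2 for the difference between responses (2174 to 3520 genes). The lowest counts for ovariectomy came without intact vehicle replicate 1 (2215) and without ovariectomized dexamethasone replicate 3 (207).

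No called member value reversed. For dexamethasone in ovariectomized females, Slco1a4 was -0.026 with quantile normalization, Slc22a5 -0.0092 recentred, -0.036 with quantile normalization and -0.21 without both replicate 2 libraries, and Slc10a1 -0.0052, -0.083 and -0.087 in the same 3 settings. For ovariectomy under dexamethasone, Slco1a4 was -0.0073, -0.12 and -0.044 in these settings, Slc10a1 -0.079 with quantile normalization, and without both libraries Slco1a1 was 0.027, Slco1b2 0.0015 and Slc22a7 0.056. Slco1a1 with dexamethasone in intact females was -0.19 without both, and the Slco1b2 difference between responses was -0.027 with quantile normalization.

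Leaving out each library in turn also turned signs. For dexamethasone in intact females Slco1a1 ranged from -0.58 to 0.57. In ovariectomized females the ranges were -0.48 to 0.68 for Slco1a1, -0.084 to 0.19 for Slco1a4, -0.21 to 0.24 for Slc22a5 and -0.087 to 0.094 for Slc10a1. For ovariectomy under vehicle Slco1a1 ranged from -1.19 to 0.15. Under dexamethasone the ranges were -0.048 to 0.10 for Slco1a4, -0.19 to 0.048 for Slco1b2, -0.33 to 0.26 for Slc22a7 and -0.031 to 0.26 for Slc10a1. The difference between responses ranged from -0.56 to 0.79 for Slco1a1 and from -0.094 to 0.49 for Slc22a7.

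The replicate numbers are not stated to pair the samples, and same-numbered deviations correlated between -0.231 and 0.396. With the number as a replicate block, 5, 2, 2, 1 and 1 members were called in the 5 comparisons, as without it, and 6241, 5155, 3450, 1533 and 3118 genes. Depth is unknown, so its limits cannot be given.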

Other observations

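Markers of immune and duct cells also differed between groups. The background was the share of all tested genes that passed. With dexamethasone it was 48.8% in intact and 40.7% in ovariectomized females. With ovariectomy it was 27.9% under vehicle and 12.8% under dexamethasone. All 4 B cell markers in the table fell with dexamethasone in both gonadal states, and all 3 tested neutrophil markers fell in ovariectomized females and none in intact females, with median log2 fold changes of -0.85 and -0.10. Of 7 Kupffer cell markers 5 were lower in ovariectomized livers under vehicle and under dexamethasone, and the summed level of the 7 was 13.60 to 13.67 in intact and 13.13 to 13.35 in ovariectomized vehicle livers. With dexamethasone in intact females this sum was 13.35 to 13.48, below the vehicle libraries without overlap, as for 55.5% of single tested genes in either direction. Of the 7 Kupffer cell markers tested singly there, 2 fell and 0 rose, where 25.9% of tested genes fell. The summed level of 6 cholangiocyte markers was 10.95 to 11.03 in intact vehicle and 11.30 to 11.57 in ovariectomized vehicle livers, and with dexamethasone in ovariectomized females it was 10.83 to 11.08. That sum follows mainly Spp1 (mean 10.96). Of the 5 tested markers 2 were higher and 0 lower with ovariectomy under vehicle. With dexamethasone in ovariectomized females 2 fell and 0 rose. Of 9 pericentral hepatocyte markers 5 fell with dexamethasone in intact females and 2 in ovariectomized females, where 1 rose, and of 6 periportal markers 1 rose and 1 fell in intact and 2 rose in ovariectomized females. None of 3 tested T and NK cell markers passed any of the 5 comparisons. Of 8 pancreas acinar markers 5, and of 5 adipocyte markers 4, had a mean at or below 0.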
